A study of Mus musculus with 8 samples.

Results

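Contractile, actin-binding and focal adhesion genes of smooth muscle were followed in primary vascular smooth muscle cells from mouse aorta. A probe belonged to the set when its gene name in the array files was one of 46 listed genes. Of these, 45 had a probe and Actg1 had none, which gave 87 probes among the 41174 on the array and 45 genes among its 28786 genes and unnamed transcripts. After a filter on dim probes, 41 of the 45 genes were tested, of 14881 in all. Aoc3, Csrp2, Pdlim3 and Pln did not pass the filter.

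The study compared 4 arrays with 4 others. In the AngII+CsA group, cells were given angiotensin II, a hormone that makes arteries constrict, at 1 µM and cyclosporin A, an inhibitor of the calcium-activated phosphatase calcineurin, at 200 ng/ml. In the AngII group they were given angiotensin II at the same dose alone. All cultures came from aortas of C57BL/6 mice, carried no named genetic change and were grown with serum, and the labels call the 4 per group independent. The series holds only these 2 groups, so there was no culture without angiotensin II to compare with. Whether the cells of a culture came from 1 animal or several is not given in the sources used here.

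Smooth muscle shortens when myosin II pulls on filaments of actin. Calcium activates myosin light chain kinase, myosin phosphatase removes the phosphate again, and tropomyosin, caldesmon and calponin sit along the thin filament. The filaments end in dense plaques, where alpha-actinin, filamin, vinculin and talin join them to the membrane. In culture, smooth muscle cells are known to shift between a contractile state rich in these proteins and a growing state that has less of them. Many of the genes are known targets of serum response factor, which binds a sequence called the CArG box.

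Values are log2 signals relative to the 75th percentile of the same array, so 1 unit is a factor of 2 and signals are not compared between probes. The 8 arrays grouped by replicate number: the first principal component over all genes held 53.3% of the variance and set both arrays of replicate 1 apart. Arrays with the same number shared a slide, 4 slides in all, so culture number and slide cannot be told apart. On each array, 42.8% to 51.7% of 43379 spots had a signal well above background. Rcan1, a feedback regulator of calcineurin that NFAT is known to induce, checks the treatment. It was 2.15, 2.32, 3.69 and 2.83 on AngII+CsA arrays 1 to 4, against 4.54, 4.44, 5.69 and 5.35 on AngII arrays 1 to 4. All AngII+CsA values lay below all AngII values, and Rcan1 fell by 2.26 by limma with the replicate number as a block (adjusted p = 0.0132), but did not pass on the groups alone (adjusted p = 0.9999).

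Promoter windows show how far the set shares the CArG box, a stretch of A and T between CC and GG whose pattern reads the same on both strands. The RefSeq table of build GRCm38.p6 gives 250 bases before and 50 after a gene's start, and 39 of the 46 genes had such a window. A box was found in 6 of the 39 (15.4%), against 488 of 27025 genes (1.81%). The stretches below hold these boxes in capitals with 20 bases on each side.
Myl9, chr2:156775283-156775332, plus strand: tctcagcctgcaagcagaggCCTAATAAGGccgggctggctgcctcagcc
Vcl, chr14:20929151-20929200, plus strand: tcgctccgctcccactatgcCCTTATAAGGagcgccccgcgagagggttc
Myl6, chr10:128493030-128493079, minus strand: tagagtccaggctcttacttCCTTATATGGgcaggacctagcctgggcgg
Actg1, chr11:120348556-120348605, minus strand: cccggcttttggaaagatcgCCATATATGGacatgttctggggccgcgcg
Fhl1, chrX:56779561-56779610, plus strand: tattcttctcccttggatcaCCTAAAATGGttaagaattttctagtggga
Fhl2, first window, chr1:43196828-43196877, minus strand: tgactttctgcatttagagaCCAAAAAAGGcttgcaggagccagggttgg
Fhl2, second window, chr1:43163963-43164012, minus strand: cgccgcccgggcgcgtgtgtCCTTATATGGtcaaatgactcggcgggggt
The box began 161 bases before the start in Myl9, 227 in Vcl, 50 in Myl6, 90 in Actg1 and 102 in Fhl1, and 96 and 31 in the windows of Fhl2. A match to the letters is not a measured binding site. Boxes outside these windows, or with other letters between CC and GG, were not searched. A gene without a match is therefore not shown to lack a box. Many listed genes are known targets of serum response factor, so the share describes the set and was not a test.

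In the contractile and cytoskeleton genes, no difference between AngII+CsA and AngII was detected beyond the spread between replicates. None of the 41 passed limma on the groups alone, where the share called over all genes was 0.0%, and none passed with the replicate block, where it was 0.0269% (smallest adjusted p = 0.9999 and 0.894). Not even Rcan1 passed on the groups alone, so a lack of calls there does not show that a gene was unchanged. On the groups alone 0 of the 41 had an unadjusted p under 0.05, beside 0.289% of all genes. With the block 1 did, Synpo2, beside 5.26% of all genes. The difference was positive in 23 genes, beside 44.1% of all genes, and negative in 18, with a median of 0.03 (all genes -0.02) and a range of -0.47 to 0.41. The median size of a difference was 0.103 in the set and 0.105 over all genes.

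Most of the genes differed between replicate numbers. By limma's moderated F test over the 4 replicate numbers, 35 of the 41 genes differed, beside 68.5% of all genes. With quantile normalization 28 did, beside 55.4% of all genes, and 27 did under each of 5 scalings, beside 41.4%. The highest and lowest replicate number lay a median of 1.23 log2 apart (2.34-fold), against 0.90 (1.87-fold) over all genes. In 25 genes this range was over 1 log2, as it was in 42.4% of all genes.

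**Figure D1:**
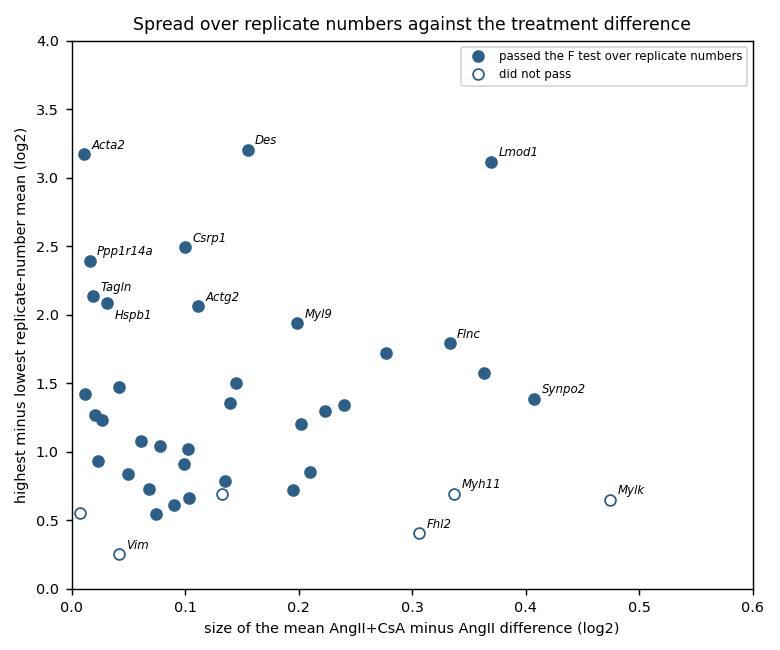
Each point is 1 of the 41 genes, with the size of its mean AngII+CsA minus AngII difference (log2) on the x axis and the gap between its highest and lowest replicate-number mean (log2) on the y axis. Filled points passed the F test over replicate numbers and open points did not. The axes are not on one footing, since a range over 4 means tends to exceed a difference of 2. Acta2, Des and Lmod1 lie highest, at 3.12 to 3.20.

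Among the actins, the smooth muscle forms varied several-fold between replicate numbers and hardly with treatment. Acta2 encodes smooth muscle alpha-actin, the main actin of contractile arterial cells. Its signal was 5.51, 7.36, 8.73 and 8.44 on AngII+CsA arrays 1 to 4, against 5.66, 7.01, 8.79 and 8.54 on AngII arrays 1 to 4. Both arrays of replicate 1 were far below the rest, and the groups overlapped throughout, at 7.51 ± 1.46 for AngII+CsA and 7.50 ± 1.46 for AngII (SD, n = 4 each). The treatment difference was 0.01 (95% interval -0.29 to 0.31 with the block), while the replicate range was 3.17, or 9.01-fold (F = 139, adjusted p = 0.000913). That F was the highest of the 41, and the range was 7.87-fold to 9.01-fold under 5 scalings.

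The Acta2 probe lies on chromosome 19 from 33942803 to 33942862 on the minus strand in build mm7, which is the build of the array's annotation. Exon and UTR positions of the probes were not looked up here. Another Acta2 probe, whose 60 bases are spread over chr19:33949738-33952992, as a probe across an exon junction would be, is shown because it repeats the pattern at another place in the transcript.
Acta2, second probe: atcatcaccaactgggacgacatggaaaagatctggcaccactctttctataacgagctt
This probe had a replicate range of 1.64 log2 (3.11-fold), again lowest in replicate 1, and a treatment difference of 0.05. Another, dim probe had a range of 0.61 and a difference of -0.14.

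Actg2, the enteric smooth muscle gamma-actin, gave 4.18, 5.26, 5.86 and 6.05 on AngII+CsA arrays 1 to 4, against 3.80, 4.85, 6.20 and 6.05 on AngII arrays 1 to 4. It too was lowest on both arrays of replicate 1 and overlapped between groups, with a difference of 0.11 and a replicate range of 2.06 (4.18-fold, adjusted p = 0.00265). Actb, the cytoplasmic beta-actin, had a difference of -0.08 and a range of 1.04. Its identity is uncertain, because the array annotation places that probe on chromosome X. The counts of the set use this chromosome X probe for Actb. The Actb probe placed on chromosome 5 gave a difference of -0.39 and a range of 0.66, with 6.93 for AngII+CsA and 8.05 for AngII in replicate 1. It was lower with AngII+CsA in 4 of 4 pairs, as were 9.72% of all genes. With every probe tested singly it did not pass the F test (adjusted p = 0.142), and its mean was highest in replicate 1, at 7.49.

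**Figure D2:**
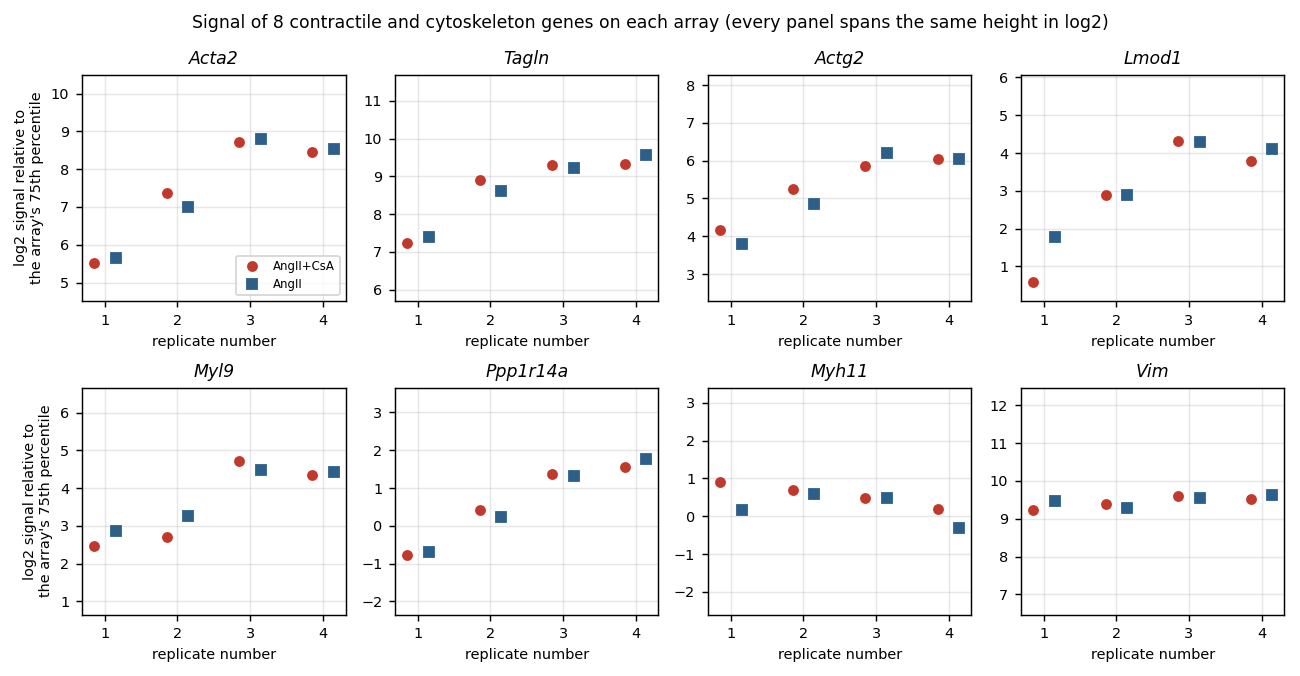
Signal of 8 genes (log2, relative to the array's 75th percentile) against the replicate number, with AngII+CsA as circles left of AngII as squares, and 1 point per array. Acta2, Tagln, Actg2, Lmod1, Myl9 and Ppp1r14a are low in replicate 1 in both groups, while Myh11 and Vim vary little and did not pass the F test.

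Genes of thin-filament proteins showed the same split, with 0 of 10 passing for treatment. The F test passed for 9, beside 68.5% of all genes, and for 6 under all 5 scalings, beside 41.4%. Tagln encodes transgelin (SM22), an early marker of smooth muscle. It gave 7.22, 8.91, 9.29 and 9.32 on AngII+CsA arrays 1 to 4, against 7.40, 8.62, 9.23 and 9.57 on AngII arrays 1 to 4. Replicate 1 was the low one in both groups, the difference was -0.02 and the replicate range was 2.13 (4.39-fold, adjusted p = 0.00188). Its second probe had a range of 2.73.

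Lmod1, leiomodin 1, which nucleates actin filaments in smooth muscle, was 0.59, 2.90, 4.31 and 3.78 on AngII+CsA arrays, against 1.78, 2.88, 4.29 and 4.11 on AngII arrays. Its replicate range of 3.12 (8.67-fold, adjusted p = 0.00256) was close to that of Acta2. The difference of -0.37 (adjusted p = 0.897 with the block) rested mainly on replicate 1, where the pair differed by -1.19, against -0.33 to 0.02 in the other pairs. Leaving out AngII+CsA replicate 1 but not its partner array gave 0.40 on the groups alone. That value also carries the spread between replicate numbers. Smtn, the actin-binding protein smoothelin of contractile cells, was 3.78, 3.73, 4.90 and 4.50 on AngII+CsA arrays, against 2.72, 3.58, 5.03 and 4.46 on AngII arrays. Here replicate 1 was higher with AngII+CsA by 1.06, the other pairs differed by -0.14 to 0.15, and the mean difference was 0.28. Without AngII replicate 1 alone the difference was -0.13, which carries the replicate spread in the same way. The pairs of replicate 1 thus pointed in opposite directions for 2 genes of the same filament.

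Synpo2, synaptopodin 2, which bundles actin at dense bodies and stress fibres, had the smallest treatment p of the 41 genes. Its signal was -1.95, -1.34, -1.25 and -0.80 on AngII+CsA arrays 1 to 4, against -2.60, -1.76, -1.61 and -0.98 on AngII arrays 1 to 4. The groups overlapped, but AngII+CsA was higher in 4 of 4 pairs, by 0.41 on average (95% interval 0.13 to 0.69 with the block). It did not pass by limma with the block (adjusted p = 0.894). Its replicate range was 1.39 (adjusted p = 0.00482). With normexp background correction the difference was 0.05 and the range 0.51.

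Tropomyosins, which wind along the actin filament, had differences of 0.10 (Tpm1), -0.02 (Tpm2), -0.01 (Tpm3) and -0.10 (Tpm4). The F test passed for all but Tpm3 (adjusted p = 0.0538). A dimmer Tpm3 probe passed it with every probe tested singly (adjusted p = 0.0179), with a range of 0.80 and its lowest mean in replicate 1. Tpm4 lost the F call under the other 4 scalings (adjusted p = 0.0757 to 0.254). Tpm2 lost it with quantile normalization (0.182) and in the authors' deposited table (0.26). Probes of Tpm1 are shown because they read different stretches of a gene known for alternative splicing and spread differently over the replicate numbers.
Tpm1, probe over chr9:67059621-67061176: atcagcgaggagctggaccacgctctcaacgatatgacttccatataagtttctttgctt
Tpm1, probe over chr9:67064287-67065357: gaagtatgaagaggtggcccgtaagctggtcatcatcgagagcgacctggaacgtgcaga
The first of these had a replicate range of 2.53 (5.78-fold) and the second of 1.23 (2.35-fold), while the brightest Tpm1 probe had 0.91 (1.87-fold). Their treatment differences were all small, at 0.06, 0.06 and 0.10. By its brighter probe Cald1, caldesmon, ran against most of the set. It was 3.30, 2.69, 3.08 and 2.29 on AngII+CsA arrays, against 3.73, 2.56, 2.48 and 2.03 on AngII arrays, highest in replicate 1 in both groups. A second Cald1 probe did not repeat this: in replicate 1 it was 1.21 for AngII+CsA and 0.48 for AngII, and its mean was highest in replicate 2. Tagln2, the transgelin of non-muscle cells, differed by 0.20 with a range of 1.20, and lost the F call with quantile normalization (adjusted p = 0.054) and in the authors' deposited table (0.0502).

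**Figure D3:**
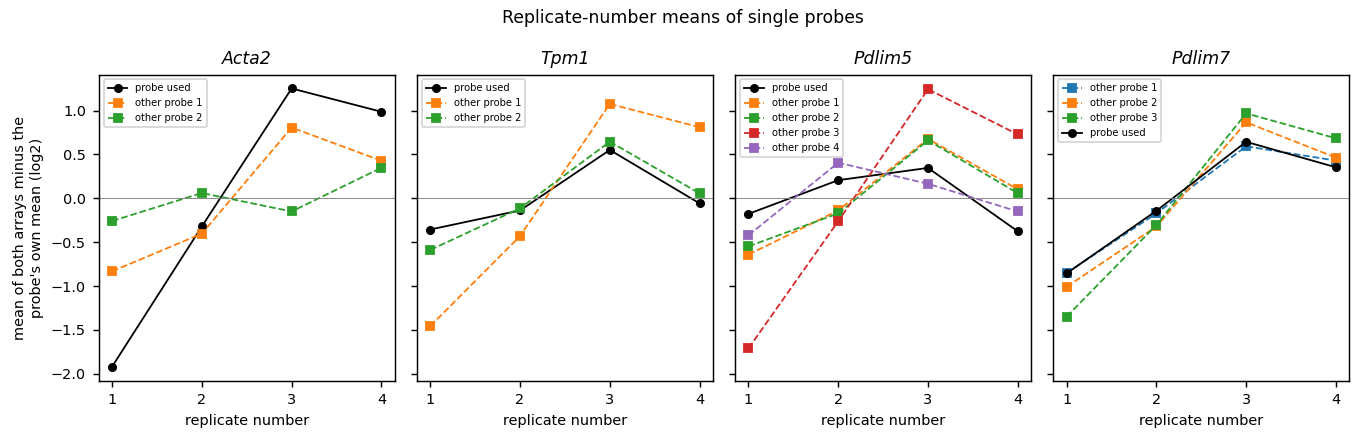
Mean of both arrays of a replicate number minus the probe's own mean (log2), for each kept probe of Acta2, Tpm1, Pdlim5 and Pdlim7, with the probe that stood for the gene in black. All probes but 1 of Pdlim5 are lowest in replicate 1, by amounts that differ within a gene, such as ranges of 0.91 to 2.53 for Tpm1.

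The myosin group holds motor chains and the enzymes that act on them. Of its 9 genes, 7 passed the F test, beside 68.5% of all genes, and 5 did under all 5 scalings, beside 41.4%. Myh11, the smooth muscle myosin heavy chain and the most specific marker of the lineage, was among the exceptions. It was 0.89, 0.70, 0.48 and 0.19 on AngII+CsA arrays 1 to 4, against 0.16, 0.58, 0.48 and -0.30 on AngII arrays 1 to 4. Its values did not drop in replicate 1 as those of Acta2 and Tagln did, and its replicate range was 0.69 (F = 4.29, adjusted p = 0.0752). AngII+CsA was higher in 4 of 4 pairs, by 0.34 on average, with an interval of -0.02 to 0.70 and an adjusted p of 0.894 with the block. Synpo2 and Myh11 were the 2 genes of the set with this pattern, beside 4.98% of all genes.

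Myl9, the regulatory light chain of smooth muscle myosin, was 2.47, 2.70, 4.72 and 4.34 on AngII+CsA arrays, against 2.86, 3.25, 4.49 and 4.42 on AngII arrays. Replicates 1 and 2 were low and 3 and 4 high in both groups, a range of 1.94 (3.83-fold, adjusted p = 0.00256), and the difference was -0.20. Its promoter holds a CArG box in the window printed above, as does that of Myl6, the essential light chain, which had a range of 0.78 and a difference of -0.14. Myl6 passed the F test (adjusted p = 0.0422) but under none of the other 4 scalings (adjusted p = 0.0867 to 0.851), and with quantile normalization its range was 0.14.

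Ppp1r14a encodes CPI-17, an inhibitor of myosin phosphatase that smooth muscle uses to hold tension. It was -0.76, 0.42, 1.36 and 1.55 on AngII+CsA arrays 1 to 4, against -0.70, 0.24, 1.33 and 1.77 on AngII arrays 1 to 4. The same number gave nearly the same value in both groups, so the difference was -0.02 and the range 2.39 (5.25-fold, F = 95.4, adjusted p = 0.00112). That range was 1.57 with normexp. Ppp1r12a, the targeting subunit of myosin phosphatase, and Mylip, a ubiquitin ligase that binds myosin light chain, were instead highest on both arrays of replicate 1, with ranges of 0.72 and 1.47 and differences of 0.07 and 0.04.

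Mylk, myosin light chain kinase, lay near background, above it on 3 of 4 AngII+CsA and 2 of 4 AngII arrays. It was -3.20, -3.09, -4.12 and -3.47 on AngII+CsA arrays, against -3.61, -3.34, -1.54 and -3.48 on AngII arrays. One array, AngII replicate 3, stood far above the other 7, so the difference of -0.47 rests on it. The other pairs differed by 0.02 to 0.41, and without that array the difference was 0.01 on the groups alone. The F of Mylk, 0.348, was the smallest of the set (adjusted p = 0.798). The non-muscle heavy chains Myh9 and Myh10 passed the F test, with ranges of 0.83 and 1.08 and differences of -0.05 and 0.06. Myh9 lost it with quantile normalization (adjusted p = 0.186, range 0.33), in the authors' deposited table (0.205) and with detected spots (0.0677).

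**Figure D4:**
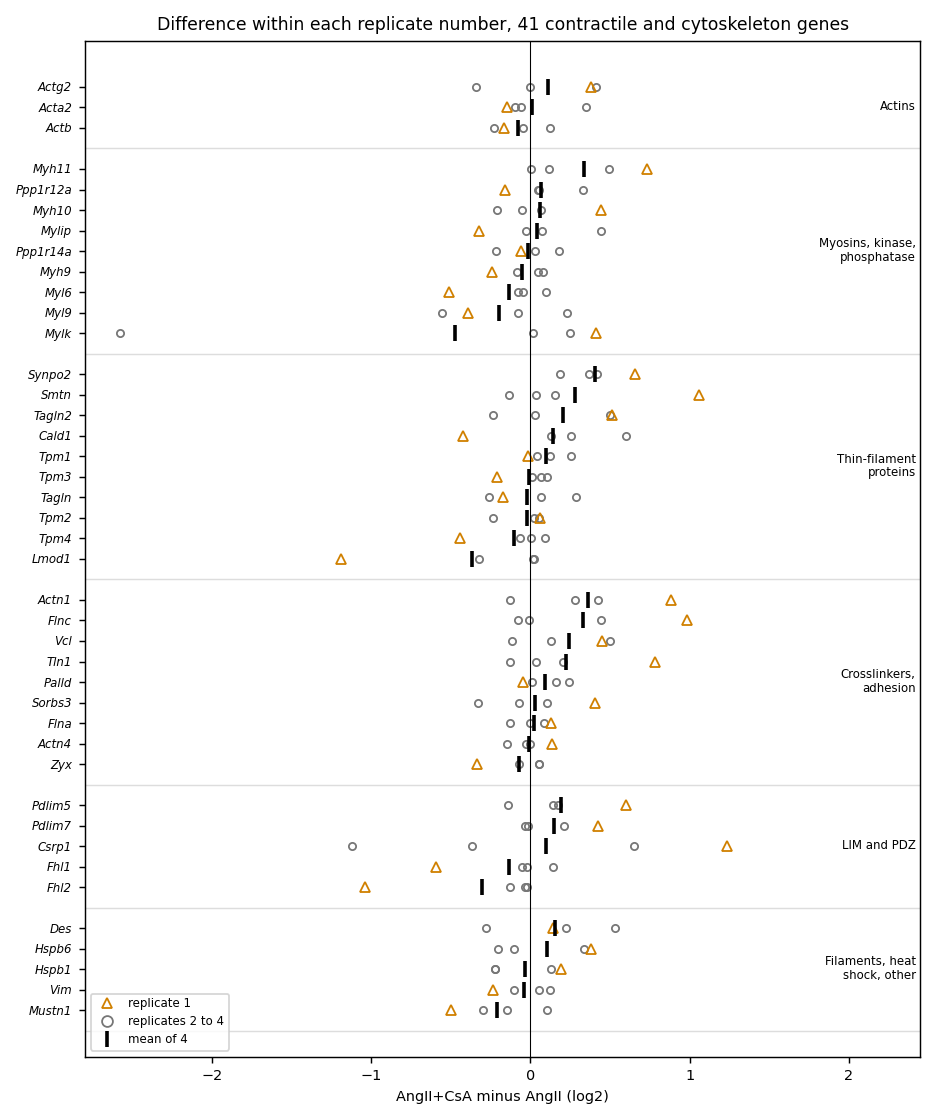
AngII+CsA minus AngII difference (log2) of 41 genes, grouped by role, with a triangle for replicate 1, circles for replicates 2 to 4 and a bar for the mean of 4. The pairs lie on both sides of 0 for most genes, the triangle is the farthest from 0 in 23 of the 41, and all means lie between -0.47 and 0.41. The farthest single point is the circle of Mylk replicate 3, at -2.58.

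All 9 tested genes of actin crosslinkers and focal adhesions passed the F test, beside 68.5% of all genes. Under all 5 scalings 8 of them passed, beside 41.4%. Treatment differences were positive in 7 of the 9, beside 44.1% of all genes, and none passed. Zyx lost the F call (adjusted p = 0.0482) under the other 4 scalings (0.0915 to 0.384). Actn1, alpha-actinin 1, which crosslinks actin, was 5.80, 6.23, 6.87 and 6.46 on AngII+CsA arrays, against 4.92, 5.81, 7.0 and 6.18 on AngII arrays. Replicate 3 was the high one and replicate 1 the low one in both groups, and the difference was 0.36 (adjusted p = 0.894 with the block). Vcl, vinculin, which links adhesions to actin, was 3.02, 3.45, 4.08 and 3.30 on AngII+CsA arrays, against 2.58, 2.95, 4.20 and 3.17 on AngII arrays. It had the same order of replicates 1 and 3, a difference of 0.24 and a range of 1.34 (adjusted p = 0.00785).

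The filamins Flna and Flnc, which crosslink actin into networks, differed by 0.02 and 0.33, with ranges of 1.27 and 1.79. Talin (Tln1), which ties integrins to actin, differed by 0.22 with a range of 1.30, and its 3 probes gave differences of 0.22 to 0.29. Actn4, Palld, Sorbs3 and Zyx had differences between -0.07 and 0.09. The pair of replicate 1 differed most in 5 of the 9 genes, by 0.88 in Actn1, 0.98 in Flnc and 0.78 in Tln1. In Vcl, Palld, Actn4 and Flna another pair did, with 0.45 in replicate 1 and 0.50 in replicate 2 for Vcl.

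Among LIM and PDZ adaptor genes, 5 of 7 were tested. The F test passed for 3, beside 68.5% of all genes, and for 2 under all 5 scalings, beside 41.4%. Fhl2, a LIM-only cofactor that serum response factor is known to induce, was 7.25, 7.56, 7.63 and 7.30 on AngII+CsA arrays, against 8.29, 7.59, 7.65 and 7.43 on AngII arrays. AngII+CsA was lower in 4 of 4 pairs, as in 9.72% of all genes, but 3 of the pairs differed by little and AngII replicate 1 stood above the other 7 arrays. The difference was -0.31 (adjusted p = 0.901 with the block), or -0.12 without that array on the groups alone. The replicate range was 0.40 (adjusted p = 0.566). Fhl1 likewise did not pass the F test (adjusted p = 0.0781). Both have CArG boxes in their promoter windows, as do Myl9 and Vcl, which passed it under all 5 scalings, and Myl6, which did not keep it.

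Csrp1, a LIM protein of the actin cytoskeleton, was -0.32, 0.87, -1.21 and 1.37 on AngII+CsA arrays, against -1.55, 0.22, -0.09 and 1.74 on AngII arrays. Pairs 1 and 2 were higher with AngII+CsA and pairs 3 and 4 lower, and its range of 2.49 was 1.60 with normexp. Its relative Csrp2, a LIM protein of arterial smooth muscle, was not tested, because it was above background on 2 of the 8 arrays. The single Csrp2 probe was -1.09 (AngII+CsA) and -1.03 (AngII) in replicate 1, and these were the arrays where it was well above background. On the other 6 arrays it was not well above background, at -5.91 to -5.32 for AngII+CsA and -5.71 to -5.13 for AngII, which are background signals and set no size for the gap. Csrp2 was singled out after its values were seen.

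Pdlim5 and Pdlim7, which tether kinases to actin bundles, differed by 0.19 and 0.14, with ranges of 1.65-fold and 2.83-fold. Pdlim5 lost the F call (adjusted p = 0.0478) in 3 of the other 4 scalings (0.0789 to 0.0843). The Pdlim5 probe with the widest spread is shown because it varied more than 4 other probes of the gene.
Pdlim5, probe at chr3:142196292-142196351: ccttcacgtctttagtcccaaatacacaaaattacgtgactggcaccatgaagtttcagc
Its replicate range was 2.95 log2 (7.75-fold), with -2.23 for AngII+CsA and -1.79 for AngII in replicate 1. It was well above background on all 8 arrays but dim in replicate 1. The lowest signal well above background on those arrays was -3.42 (AngII+CsA) and -3.32 (AngII). The range of this probe with normexp was not taken. The other 4 probes had ranges of 0.72 to 1.32.

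Intermediate filaments, heat shock proteins and the remaining genes completed the set. Des, desmin, the intermediate filament of muscle, was -5.22, -3.30, -2.23 and -2.38 on AngII+CsA arrays, against -5.36, -3.83, -1.95 and -2.61 on AngII arrays. It was above background on 3 of 4 AngII+CsA and 2 of 4 AngII arrays and on neither array of replicate 1. Its range of 3.20 (adjusted p = 0.00116) therefore includes signals at background and was 0.54 with normexp. Vim, vimentin, the intermediate filament of mesenchymal and cultured cells, had the narrowest range of the set at 0.25 (adjusted p = 0.306) and a difference of -0.04.

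Hspb1, a small heat shock protein that associates with actin, was 6.61, 7.46, 8.49 and 8.11 on AngII+CsA arrays, against 6.42, 7.34, 8.71 and 8.33 on AngII arrays. Its replicates ran in the order 1, 2, 4, 3 in both groups, a range of 2.09 (4.25-fold, adjusted p = 0.00186) at a difference of -0.03. Hspb6, another small heat shock protein of smooth muscle, differed by 0.10. Mustn1, a small nuclear protein of the musculoskeletal system, was -1.31, -1.19, -0.53 and -1.18 on AngII+CsA arrays, against -0.81, -1.29, -0.23 and -1.04 on AngII arrays. Replicate 3 was the high one in both groups, and the difference was -0.21 (adjusted p = 0.899 with the block). Its F call (adjusted p = 0.0216) was lost with detected spots (0.141). Pln, phospholamban, which restrains the calcium pump, and Aoc3, an amine oxidase of the smooth muscle surface, were above background on none of the 8 arrays, and a Pdlim3 probe, for a PDZ protein of actin anchors, on at most 3.

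Across the set, replicate 1 was the low end. Both of its arrays were the lowest of the 8 in 19 of 41 genes, beside 19.7% of all genes. The count was 15 with normexp (15.8% of all genes), 22 with quantile normalization (24.0%), 25 in the authors' deposited table (23.8%) and 25 with the percentile taken over detected spots (21.8%). Both arrays of replicate 3 were the highest in 25 genes (23.7% of all genes) and in 21 with normexp (21.0%), but in 8 with quantile normalization (12.6%), 8 in the authors' deposited table (11.9%) and 10 with detected spots (6.48%). The 75th percentile that scaled these values was itself lowest on the arrays of replicate 3, at 6.39 log2 intensity for AngII+CsA and 6.02 for AngII, against 6.44 to 6.97 on the others. The 2 ends therefore differ in how they depend on the scaling. Under all 5 scalings, 27 genes passed the F test, beside 41.4% of all genes, with Acta2, Tagln, Actg2, Lmod1 and Myl9 among the 27. Vim, Fhl1, Fhl2, Myh11, Mylk and Tpm3 passed under none by the probes that stood for them, though a dimmer Tpm3 probe passed when tested singly.

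Some markers of other cells also differed between replicate numbers, as did 68.5% of all genes. The 7 tested smooth muscle markers of 8, of which Acta2, Tagln, Myh11, Smtn, Lmod1 and Des are members of the set, had a summed signal of 221 (AngII+CsA) and 290 (AngII) multiples of the 75th percentile in replicate 1. On the other arrays the sum was 726 to 1215 for AngII+CsA and 709 to 1378 for AngII. Myocd, the smooth muscle coactivator myocardin, was not above background on enough arrays to be tested. Of the 7, all but Myh11 had their lowest mean in replicate 1, and the sum is carried mostly by Acta2 and Tagln. The 5 tested adventitial fibroblast markers of 8 split. Their sum, carried mostly by Dcn, was 1150 (AngII+CsA) and 1196 (AngII) in replicate 1, 690 and 785 in replicate 2, 440 and 409 in replicate 3, and 344 and 302 in replicate 4. Pdgfra, a growth factor receptor of fibroblasts, and the matrix proteoglycans Lum and Dcn were highest in replicate 1. These 3 of the 5 passed the F test, beside 68.5% of all genes. Pi16 and Clec3b were lowest in replicate 1 and did not pass the F test, and Cd34 was above background on no array. Cultured smooth muscle is also known to make Dcn. In these bulk samples, fewer cells of a type and less RNA per cell cannot be told apart, and the part of other cells in the replicate differences was not tested.

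Sums were also taken over the other lists. Endothelial markers summed to 0.666 to 0.880 (AngII+CsA) and 0.817 to 1.10 (AngII), with Cdh5, Pecam1 and Tie1 above background on no array and 5 of 9 tested. For macrophages (3 of 7 tested) the sums were 6.55 to 10.8 (AngII+CsA) and 6.69 to 11.8 (AngII), with Adgre1 and Itgam above background on no array. For T cells (4 of 6 tested) they were 1.10 to 1.73 (AngII+CsA) and 1.20 to 2.21 (AngII), with Cd8a above background on no array. For striated muscle (9 of 12 tested) they were 35.8 to 104 (AngII+CsA) and 40.6 to 105 (AngII), lowest in replicate 1 in both groups, with Mb and Myh6 above background on no array.

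**Figure D5:**
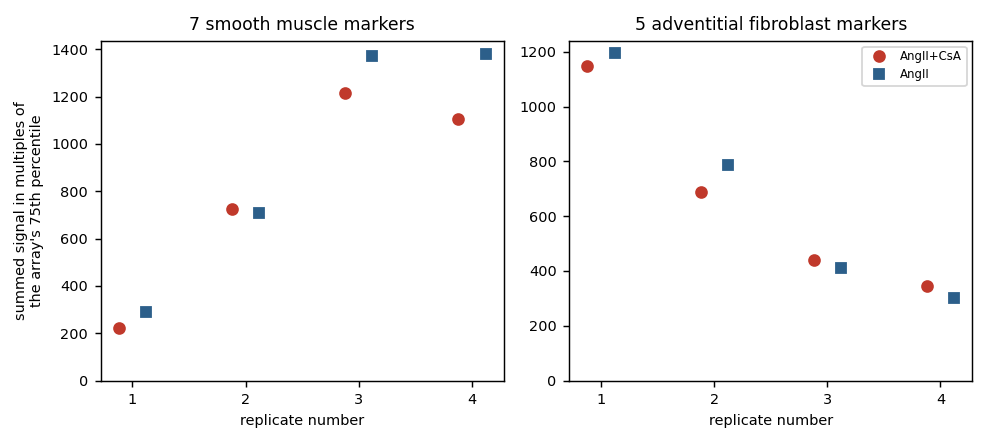
Summed signal in multiples of the array's 75th percentile, from 0, against replicate number, for 7 smooth muscle markers (left) and 5 adventitial fibroblast markers (right), with AngII+CsA as circles left of AngII as squares. In replicate 1 the smooth muscle sum is at its lowest (221 and 290) and the fibroblast sum at its highest (1150 and 1196), each read across arrays only. Single markers differ: Myh11, Pi16 and Clec3b do not follow their list's sum.

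Another 58 contractile and actin regulatory genes, among them calponins, cofilins, formins and integrins, gave a similar account. Of these 54 were tested, with 28 positive (44.1% of all genes) and 26 negative differences, a median of 0.01 and 0 past either treatment test. By limma with the block 4 had an unadjusted p under 0.05, beside 5.26% of all genes. The F test passed for 43, beside 68.5% of all genes. Cnn1, calponin 1, which binds actin and damps myosin, was 3.20, 5.87, 6.83 and 6.33 on AngII+CsA arrays, against 5.90, 7.38, 8.12 and 7.67 on AngII arrays. The groups overlapped, but AngII+CsA was lower in 4 of 4 pairs, by 1.71 on average (adjusted p = 0.461 with the block), a size that no tested gene of the set approached. Mrtfb, a coactivator of serum response factor, differed by -0.44, the actin-binding Nexn by 0.45 and the formin Diaph3 by 0.30. Each differed in the same direction in 4 of 4 pairs (adjusted p = 0.894 with the block). Of all genes, 9.72% were lower and 4.98% higher in 4 of 4 pairs. Mrtfb and Nexn were close to background, above it on 2 and 3 of 4 AngII+CsA arrays and on 2 of 4 AngII arrays each.

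The within-pair spread was also uneven. In replicate 1, 13 of the 41 genes differed by over 0.5 log2 between AngII+CsA and AngII, beside 26.4% of all genes. In replicate 2 there were 5 (7.54% of all genes), in replicate 3 there were 3 (14.8%) and in replicate 4 there were 0 (5.88%). The medians of the 4 pairs were 0.06, 0.12, -0.02 and -0.03. No gene of the set had groups that did not overlap, beside 0.37% of all genes. Without the block the residual SD of the set had a median of 0.57 (all genes 0.44), and the block lowered it to 0.20 (all genes 0.18).

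Where several probes of a gene passed the filter, which was so for 16 genes, their treatment differences lay within 0.48 of each other, with opposite signs in 6 genes. The widest gap was in Myh9, between its bright probe and a dim one (-0.05 and 0.43). Among 21 probes that did not pass the filter, 4 were above background on exactly the arrays of replicate 1. They were the Csrp2 probe and 1 probe each of Acta2, Vcl and Flnc, genes whose brightest probe was lowest in that replicate.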

How the data were processed

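Total RNA of 8 cultures was amplified into Cy3-labelled RNA and hybridised to one-colour Agilent arrays, per the labels' protocols. The array design was 014868 and spots were quantified with Feature Extraction 9.5.3.1, per the file headers. The deposited scanner files give each spot's processed, mean and background intensity on a linear scale. A second table deposited by the authors holds log2 values, with a normalization not given in the sources used here, and served as an alternative.

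Signals were taken as log2 of the processed intensity minus each array's 75th percentile. Control and outlier spots were left out and no spot was saturated. Spots of a probe were averaged, and probes well above background on at least 4 of 8 arrays were kept (19529, and 66 of the 87 of the set). The probe with the highest mean stood for its gene. Probes were matched by the gene name in the files, and through accessions to current symbols (22951 by accession, 6659 by symbol, 11564 left as named). Both ways gave the same members.

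The 14881 genes were tested with limma 3.58.1 (R 4.3.3), two-sided, at a Benjamini-Hochberg adjusted p of 0.05. The principal fit had the groups as its only term. A further fit added replicate numbers as a fixed block and gave the F test over them. Arrays of one number deviated together from their group means (r of 0.70 to 0.86, against -0.76 to 0.26 for other arrays), so the numbers, which the labels and slides share, were taken to pair the arrays. P-values on the groups alone measure only the spread between these cultures. Those with the block, the F test included, measure only the spread left after group and replicate number are accounted for. The number of arrays limits the precision. The scripts were tested on simulated data.

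Values on every array are given for Acta2, Tagln, Myh11, Actg2, Smtn, Des, Lmod1 and Mylk, for the 4 genes of each direction with the smallest p with the block, and for the 4 with the largest and 2 with the smallest F. Of the other contractile list, 2 genes of each direction are named. Cald1, Csrp1 and Csrp2 were given values after these were seen. The members and lists were chosen with earlier results of these data known. Alternatives covered background correction, scaling, the dim-probe filter, outlier spots, probe choice, the variance model, a random block, the authors' table and leaving out arrays.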

Additional observations from a re-analysis of the deposited data

Results flagged for a closer look

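In each group of 4 arrays, the highest or lowest value of each tested gene was set against the other 3, and 4 of 82 such sets had an array that stood apart by Dixon's criterion. Chance gives about 1 in 20. Mustn1 stood at -0.53 on AngII+CsA replicate 3, with the other AngII+CsA arrays at -1.31 to -1.18. Mylip stood at 2.87 on AngII replicate 1, with the other AngII arrays at 1.25 to 1.48. Mylk stood at -1.54 on AngII replicate 3, with the other AngII arrays at -3.61 to -3.34. Tpm3 stood at 8.64 on AngII+CsA replicate 3, with the other AngII+CsA arrays at 8.06 to 8.13.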

How the results depend on the processing

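The count of 0 genes of the set past the treatment test held in the fits run, with and without the replicate block, and over all genes 4 passed with the replicate block and 6 with the replicate as a random block. The median difference of the set was 0.03, and 0.11 with normexp. Leaving out 1 array gave -0.14 to 0.21, negative without AngII replicate 1 or 2 and without AngII+CsA replicate 3 or 4. These values keep the partner array and so also carry the spread between replicate numbers. Leaving out a pair with the block gave -0.00 to 0.06. Signs of single genes changed in 117 of 654 values under 16 alternatives, 86 of them on leaving out an array, and in none for Actn1, Fhl2, Mustn1, Myh11, Pdlim5, Synpo2 and Vcl. The largest move was 0.77 log2. No value moved by over 1 SD, where the SD includes the spread between replicate numbers. Against its residual SD with the block, 0.16, Acta2 moved by more, from 0.01 to 0.68 without AngII+CsA replicate 1. The F test passed for 25 to 36 genes without 1 replicate number, for 28 to 38 of the tested genes under the other settings, and for 54 of 66 probes tested singly. Genes highest on both arrays of replicate 3 numbered 8 with quantile normalization, 8 in the authors' table and 10 with the percentile over detected spots, a setting chosen after seeing the data. Rcan1 passed with the replicate block (-2.26, adjusted p = 0.0132) and not on the groups alone, and ranged from -2.57 to -2.03 on leaving out arrays. The cause of these changes was not tested. Signals near background limit Des, Mylk, Synpo2 and the Pdlim5 probe with the widest spread.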
